A study of Homo sapiens with 6 samples.

Results

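The genes described here are 9 of the NRF2 antioxidant pathway: NFE2L2, which encodes the transcription factor NRF2, its inhibitor KEAP1, and the antioxidant and NADPH genes NQO1, GCLC, GCLM, TXNRD1, SRXN1, OSGIN1 and ME1. They were taken by gene symbol, 9 of the 54261 symbols in the count table, and all 9 passed the filter on low counts. RNA was sequenced from T24, an established human bladder cancer cell line, in 2 groups of 3 libraries. All cells were infected with a lentivirus that carries the fluorescent protein ZsGreen and puromycin resistance and were kept as a stable, puromycin-selected line. The control group (T24-NC) carried the control virus, whose construct name gives no hairpin, and the knockdown group (T24-shRNA2) carried the hairpin numbered 2 against MTHFD2. A single hairpin was sequenced, and the labels do not say whether the numbered replicates were separate cultures, so the p-values rest on a spread between libraries that may be technical in part or whole.

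NRF2 is held low in unstressed cells by KEAP1, an adaptor that senses reactive electrophiles through its cysteines and passes NRF2 to a CUL3 ubiquitin ligase for degradation. When KEAP1 is modified, NRF2 accumulates, pairs with a small MAF protein and binds antioxidant response elements near genes of glutathione synthesis, thioredoxin recycling and NADPH supply. Most of this control acts on NRF2 protein, which RNA counts do not measure. MTHFD2 is a mitochondrial folate enzyme that reduces NAD or NADP while it oxidises one-carbon units, and so is one of the cell's sources of reducing power.

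The 6 libraries held 17801990 to 19978392 counts. MTHFD2 was lower in every knockdown library, at 185 ± 3.18 CPM (read counts scaled to a common library size) in control and 32.4 ± 5.12 CPM in knockdown libraries (SD, n = 3 each). On the log2 scale this was a change of -2.51 ± 0.13 (SE; edgeR adjusted p = 1.8e-06). Of 15 markers of bladder epithelial lines 6 were tested, of which 2 fell (KRT8 and KRT18) and 1 rose (UPK1A). Their summed level was 2110 to 2520 CPM in control and 1000 to 1320 CPM in knockdown libraries, nearly all of it from keratins. KRT20 and UPK3A had no count in any library, and GATA3, EPCAM and CDH1 had mean levels under 1 CPM in both groups. Of 12 fibroblast markers, 5 of the 7 tested rose, 71.4% beside 9.71% of all genes. Their summed level was 7.81 to 10.6 CPM in control libraries and 51.6, 13.1 and 43.7 CPM in knockdown replicates 1, 2 and 3, and no marker was at 0 in all libraries. The summed level of 10 leukocyte markers was 1.69 to 3.65 CPM, and the 1 tested did not pass. That of 7 endothelial markers was 2.18 to 3.07 CPM in control and 1.18 to 1.76 CPM in knockdown libraries, without overlap, and the 1 tested, CDH5, fell (-1.18 ± 0.34, SE; edgeR adjusted p = 0.0333). The part of these marker changes in the results that follow was not tested. In bulk RNA, a lower level in every cell and fewer cells that express the gene cannot be told apart.

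One NRF2 pathway gene fell, and the rest did not pass the test. OSGIN1 fell to 0.42 of its control level, while NQO1, TXNRD1, SRXN1, GCLM, GCLC, ME1, KEAP1 and NFE2L2 itself differed by less than 0.3 on the log2 scale. By edgeR's quasi-likelihood test, 1 of the 9 genes was lower and 0 were higher in the knockdown libraries at an adjusted p under 0.05. Over all 13896 genes tested, 17.3% passed, 7.58% lower (1053 genes) and 9.71% higher (1349 genes), so 1 of 9 is near the share among all genes. With per-library trends on GC content and exonic length removed, that split turned to 2152 lower and 1479 higher. The median log2 fold change of the 9 genes was -0.15, against 0.01 for all genes tested. At an unadjusted p under 0.05 there were 4 of the 9 (OSGIN1, GCLM, GCLC and KEAP1), against 33.4% of all genes. The groups did not overlap for 4 of the 9 (GCLC, GCLM, SRXN1 and OSGIN1), beside 39.1% of all genes.

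**Figure D1:**
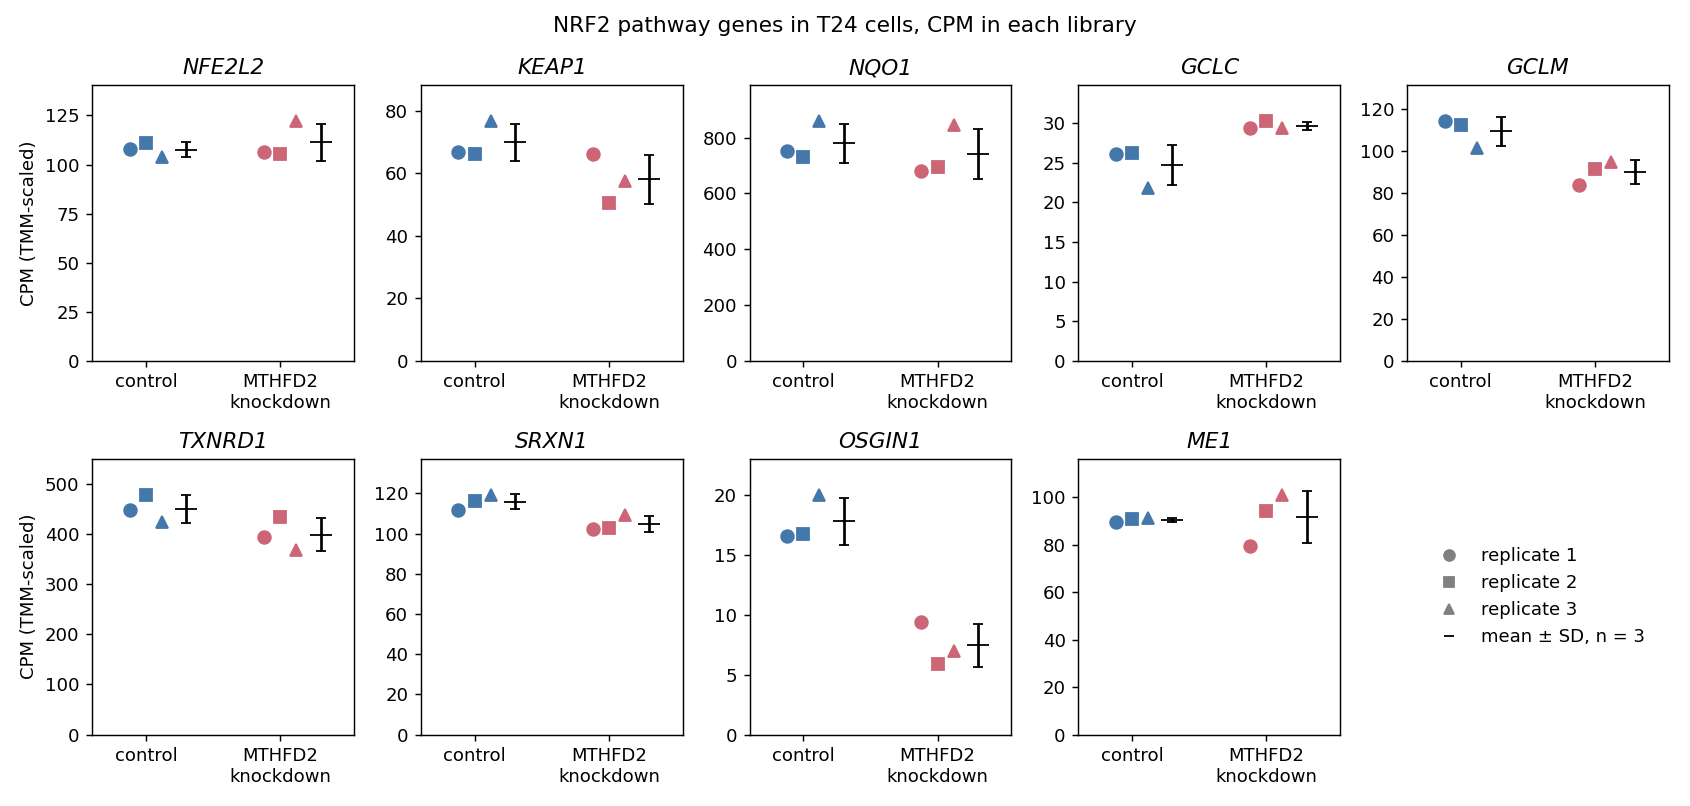
CPM (y axes, from 0, each gene on its own scale) of the 9 genes in the 3 control (blue) and 3 MTHFD2 knockdown (red) libraries, with symbols for the replicate number and the mean ± SD beside them. OSGIN1 is the gene whose groups stand furthest apart, with 16.59 to 20.02 CPM in control and 5.90 to 9.40 CPM in knockdown libraries.

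OSGIN1 encodes oxidative stress induced growth inhibitor 1, named for its effect on growth. The gene lies on chromosome 16, 83948282 to 83966332, plus strand (GRCh38). It held 291, 322 and 377 counts in control replicates 1 to 3 and 189, 117 and 131 in knockdown replicates 1 to 3. On the CPM scale these were 16.59, 16.74 and 20.02 against 9.40, 5.90 and 7.02. Every knockdown library was below every control, with knockdown replicate 1 the highest of its group. OSGIN1 fell by 1.26 ± 0.18 on the log2 scale (SE; edgeR adjusted p = 0.00118), with a 95% interval of -1.64 to -0.87. The summed fibroblast markers were at 51.6, 13.1 and 43.7 CPM in knockdown replicates 1 to 3. OSGIN1 was at 9.40, 5.90 and 7.02 CPM in the same libraries, and a link was not tested. With knockdown replicate 2 alone the log2 fold change of OSGIN1 was -1.60, in a fit whose 1 knockdown library gives no spread of its own. OSGIN1 shares 481 exonic bases with the protein-coding gene AC009119.2, which is not in the table under that name.

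The sensor pair came next. NFE2L2 (chromosome 2, 177227595 to 177392697, minus strand) was at 108, 111 and 104 CPM in control replicates 1 to 3 and at 106, 105 and 122 CPM in knockdown replicates 1 to 3. The groups overlapped, with knockdown replicate 3 the highest of all. NFE2L2 differed by 0.05 ± 0.10 on the log2 scale (SE; edgeR adjusted p = 0.763), and the 95% interval ran from -0.17 to 0.27. NFE2L2 shares 1054 exonic bases with AC019080.1 on the same strand and 54 with AGPS on the other. KEAP1 (chromosome 19, 10486120 to 10503741, minus strand) was at 66.9, 66.1 and 76.7 CPM in control and 66.2, 50.5 and 57.6 CPM in knockdown libraries. Knockdown replicate 1 overlapped the controls and the other two knockdown libraries were below them. The log2 fold change of KEAP1 was -0.27 ± 0.12 (SE; edgeR adjusted p = 0.146; 95% interval -0.53 to -0.003). It was -0.48 with knockdown replicate 2 alone, a fit with 1 knockdown library, and -0.18 without knockdown replicate 2 (edgeR adjusted p = 0.388).

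GCLC and GCLM encode the catalytic and the modifier subunit of glutamate-cysteine ligase, the rate-limiting enzyme of glutathione synthesis, in which the modifier raises the efficiency of the catalytic subunit. Their transcripts lay on opposite sides of the controls. GCLC (chromosome 6, 53497341 to 53616970, minus strand) was at 26.1, 26.3 and 21.9 CPM in control and at 29.4, 30.3 and 29.4 CPM in knockdown libraries. All knockdown libraries were above all controls, of which replicate 3 was the lowest. GCLM (chromosome 1, 93885205 to 93909456, minus strand) was at 114, 112 and 101 CPM in control and 83.9, 91.2 and 94.7 CPM in knockdown libraries, and all knockdown libraries were below all controls. Neither difference passed: the log2 fold change was 0.26 ± 0.12 for GCLC (SE; edgeR adjusted p = 0.136) and -0.28 ± 0.10 for GCLM (SE; edgeR adjusted p = 0.0751).

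The call of GCLM depended on the setting. It passed by DESeq2 (adjusted p = 0.0492), in edgeR without knockdown replicate 3 (-0.32, edgeR adjusted p = 0.0462), and in edgeR once per-library trends on GC content and exonic length were removed (-0.44, edgeR adjusted p = 0.00143). The same correction moved GCLC to 0.11 (edgeR adjusted p = 0.398).

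A ratio of 2 genes within a library does not depend on how libraries are scaled. The ratio of GCLM to GCLC counts was 4.38, 4.28 and 4.63 in control replicates 1 to 3 and 2.85, 3.01 and 3.23 in knockdown replicates 1 to 3. The groups did not overlap, and the ratio was lower by a log2 difference of -0.55 (two-sided exact permutation p = 0.1, the smallest that 3 against 3 allows; 0.133 adjusted over 4 ratios). The ratio of OSGIN1 to NQO1 did not overlap either, with a mean of 0.0228 ± 0.00062 in control and 0.0102 ± 0.00311 in knockdown libraries (SD, n = 3; exact permutation p = 0.1). The ratio of NFE2L2 to KEAP1 was 1.61, 1.68 and 1.35 in control and 1.61, 2.09 and 2.12 in knockdown libraries, with overlap (exact permutation p = 0.3). The 4 pairs, with TXNRD2 to TXNRD1 as the last, were chosen after the values were seen.

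**Figure D2:**
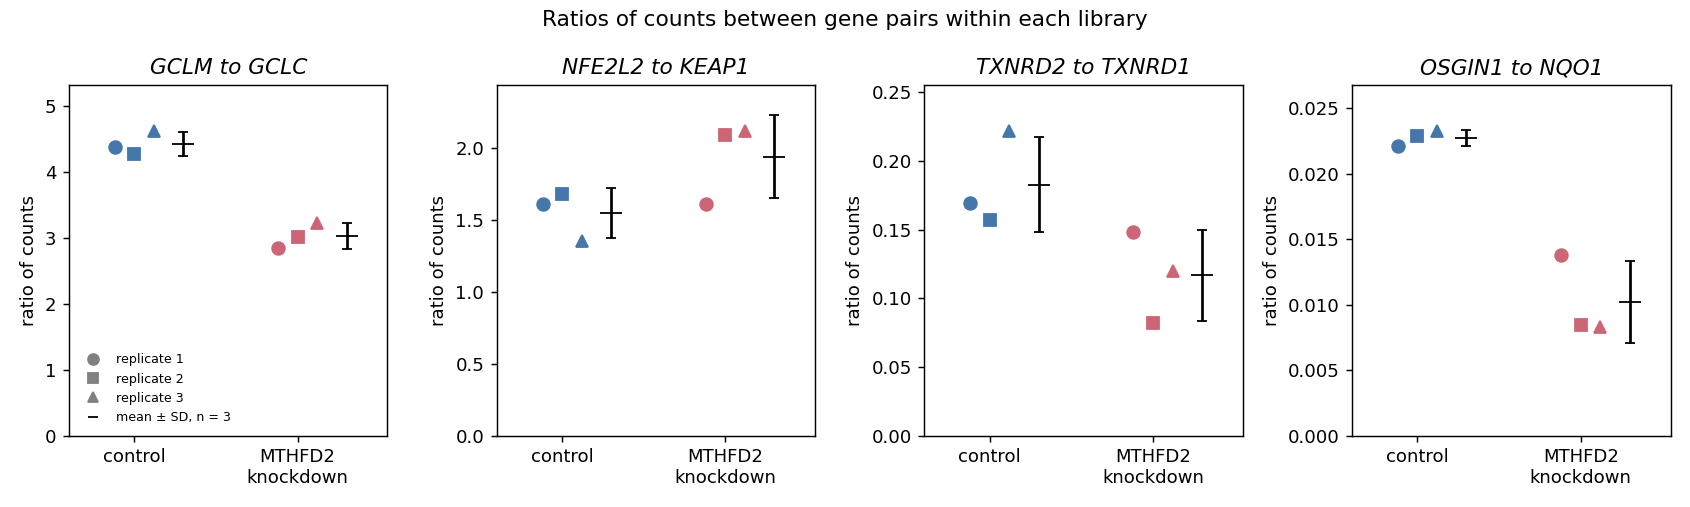
Ratios of counts (y axes, from 0) between 2 genes within each library, in 3 control (blue) and 3 knockdown (red) libraries, with the mean ± SD. The ratio of GCLM to GCLC is 4.28 to 4.63 in controls and 2.85 to 3.23 in knockdown libraries, while the ratio of NFE2L2 to KEAP1 overlaps between the groups.

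NQO1 encodes a flavoprotein that reduces quinones with NADH or NADPH and is the standard readout of NRF2 activity. It was the most abundant of the 9 genes (chromosome 16, 69706996 to 69726951, minus strand). Its level was 751, 730 and 860 CPM in control and 682, 696 and 846 CPM in knockdown libraries. The groups overlapped, and replicate 3 was the highest library in both. NQO1 differed by -0.07 ± 0.12 on the log2 scale (SE; edgeR adjusted p = 0.699), with a 95% interval of -0.34 to 0.19, so a change of the size seen in OSGIN1 lies outside it.

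TXNRD1 and SRXN1 serve the thioredoxin arm. TXNRD1 (chromosome 12, 104215779 to 104350305, plus strand) encodes the cytosolic selenoprotein that reduces thioredoxin with NADPH. It was at 448, 478 and 423 CPM in control and 395, 433 and 369 CPM in knockdown libraries, with knockdown replicate 2 inside the control range. TXNRD1 differed by -0.17 ± 0.11 on the log2 scale (SE; edgeR adjusted p = 0.27), and it passed once GC content and length trends were removed (-0.30, edgeR adjusted p = 0.0132). SRXN1 (chromosome 20, 646615 to 653370, minus strand) encodes sulfiredoxin, which repairs peroxiredoxins oxidised too far. It was at 112, 116 and 119 CPM in control and 102, 103 and 109 CPM in knockdown libraries, without overlap but by a small step (-0.15 ± 0.09, SE; edgeR adjusted p = 0.297; -0.06 with GC content and length trends removed). SRXN1 shares 2292 exonic bases with the protein-coding gene AL121758.1, which is not in the table under that name.

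ME1 (chromosome 6, 83210389 to 83431071, minus strand) encodes cytosolic malic enzyme, which makes NADPH while it turns malate into pyruvate. The controls were close together at 89.6, 90.8 and 91.1 CPM, and the knockdown libraries were spread around them at 79.5, 94.0 and 101 CPM. ME1 differed by 0.02 ± 0.11 on the log2 scale (SE; edgeR adjusted p = 0.94; 95% interval -0.22 to 0.25). Of the 9 genes ME1 had the smallest difference between groups.

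**Figure D3:**
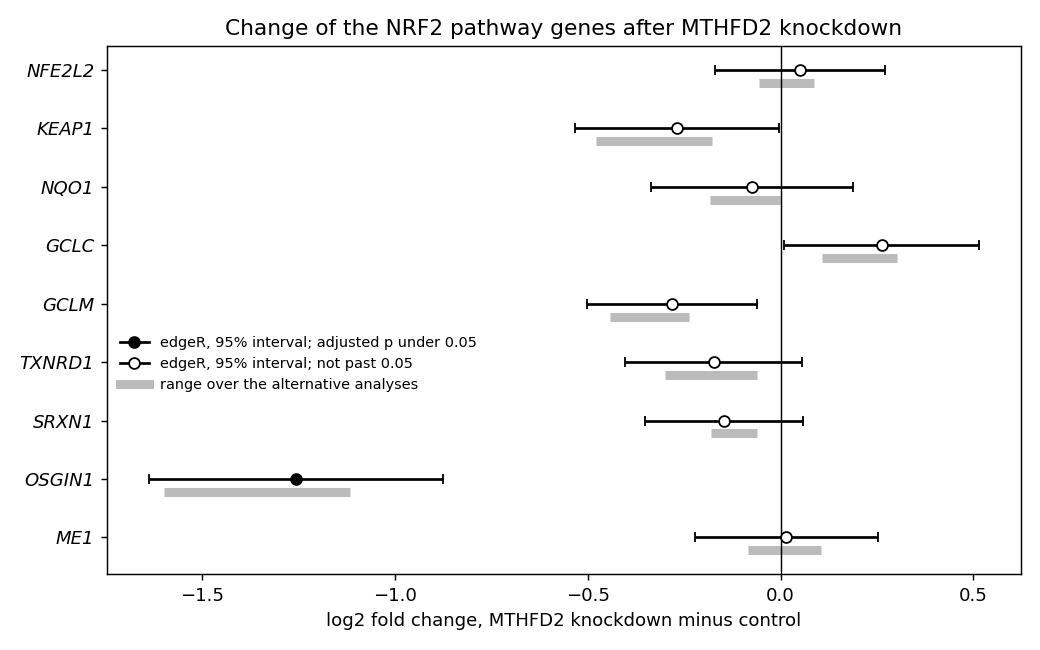
Log2 fold change (x axis, knockdown minus control) of the 9 genes from edgeR with its 95% interval (black), and the range over 14 alternative analyses (grey bars). OSGIN1 is the filled point at -1.26, and the intervals of NFE2L2, NQO1, TXNRD1, SRXN1 and ME1 cross 0.

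Levels can be compared between genes once divided by length. On the scale of CPM per kilobase of annotated exon, NQO1 stood first in control libraries at 240 ± 21.4, then TXNRD1 (67.1 ± 4.14), SRXN1 (43.0 ± 1.42) and ME1 (26.8 ± 0.239; SD, n = 3). Next came GCLM (20.2 ± 1.29), KEAP1 (18.6 ± 1.57) and NFE2L2 (17.99 ± 0.63), whose control ranges of 18.7 to 21.1, 17.6 to 20.4 and 17.3 to 18.6 CPM per kilobase lay close together. KEAP1 overlapped both of the others, while the lowest GCLM control was just above the highest of NFE2L2. OSGIN1 (5.14 ± 0.56) and GCLC (2.86 ± 0.289) were lowest. In the knockdown libraries OSGIN1, at 2.15 ± 0.516 CPM per kilobase, was below GCLC, at 3.43 ± 0.0606, the reverse of their order in controls, and the libraries of the 2 genes did not overlap in either group. The exonic length covers all annotated transcripts, so genes with many long transcript forms, such as GCLC at 8646 bases, come out lower than their main transcript would. In CPM without division by length, GCLC was above OSGIN1 in controls as well (24.8 against 17.8). The order of the 2 genes in controls, and so its reversal, rests on the lengths used.

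The antioxidant response element is the site through which NRF2 and its MAF partner are known to act, and its core TGACNNNGC (N is any base) was looked for on both strands in RefSeq promoters (GRCh38.p14), from 250 bases before to 50 bases after each start. All 9 genes had at least 1 promoter in the RefSeq set, and 4 held the core in at least 1 of their promoters: GCLM, TXNRD1, ME1 and KEAP1. Over all genes of the set 16.1% held it, and over single promoters 13.3%. OSGIN1, the gene that fell, and NQO1, GCLC, SRXN1 and NFE2L2 had no core in this window, which says only that these letters are not in it. Of 8 matches 6 are shown, leaving out 1 match of TXNRD1 and 1 of ME1 next to the start. They are printed with 10 bases on either side, so that the shared letters can be seen, written in the direction of the gene, with the core in capitals.
GCLM, chr1:93909446-93909474, minus strand: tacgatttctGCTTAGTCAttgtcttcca
KEAP1, chr19:10502784-10502812, minus strand: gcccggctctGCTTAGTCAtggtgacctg
KEAP1, chr19:10502807-10502835, minus strand: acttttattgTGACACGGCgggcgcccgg
TXNRD1, chr12:104286920-104286948, plus strand: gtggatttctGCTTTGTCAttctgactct
TXNRD1, chr12:104215670-104215698, plus strand: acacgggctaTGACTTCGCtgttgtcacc
ME1, chr6:83431170-83431198, minus strand: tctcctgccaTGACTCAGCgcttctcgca

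The GCLM match begins 34 bases before the RefSeq start and reads TGACTAAGC on the opposite strand, and the second KEAP1 promoter holds the same letters 31 bases before its start. The TXNRD1 match on the opposite strand lies 102 bases before the second of 2 starts, and the ME1 match 137 bases before the start. In GENCODE 29 the windows printed for GCLM, KEAP1 and the second TXNRD1 start overlap annotated exons of those genes, and the other windows lie upstream of the gene. GCLM and KEAP1, which share the same 9 letters, had log2 fold changes of -0.28 and -0.27. Neither passed (edgeR adjusted p = 0.0751 and 0.146), and with GC content and length trends removed they were at -0.44 and -0.19. TXNRD1 and ME1, each with a match, were at -0.17 and 0.02 and did not pass either. OSGIN1, the only one of the 9 genes called, had no match. A link between the letters and the changes was not tested.

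Among partners and regulators of NRF2, 5 of 18 tested genes fell and 0 rose, a share of 27.8% beside 17.3% of all genes. The median was -0.13. MAFF, a small MAF protein that pairs with NRF2 on DNA, fell from 41.8 ± 3.71 to 25.1 ± 3.18 CPM (SD, n = 3), a log2 fold change of -0.74 ± 0.13 (SE; edgeR adjusted p = 0.00344). The other small MAF genes, MAFG (-0.10 ± 0.10) and MAFK (0.08 ± 0.12), did not pass. SQSTM1, PGAM5 and DPP3, whose proteins all bind KEAP1, fell by 0.48 ± 0.10, 0.51 ± 0.12 and 0.43 ± 0.11 on the log2 scale. SQSTM1, an autophagy receptor that competes with NRF2 for KEAP1, went from 485, 497 and 561 CPM to 388, 348 and 374 CPM, with no overlap between the groups. The fifth gene was SYVN1, a ubiquitin ligase of the endoplasmic reticulum (-0.42 ± 0.12), named here after its values were seen, and its call was lost in 5 of the 6 fits leaving out 1 library (edgeR adjusted p = 0.051 to 0.12). SYVN1 shares 398 exonic bases with FAU and 356 with MRPL49, both with more counts than SYVN1.

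The repressor BACH1, which competes for the same elements, was at 17.5 ± 2.19 CPM in control and 22.7 ± 2.89 CPM in knockdown libraries, without overlap (0.38 ± 0.14, SE; edgeR adjusted p = 0.0821). Its log2 fold change was 0.19 with GC content and length trends removed (edgeR adjusted p = 0.181), and 0.56 with knockdown replicate 2 alone. BACH2, of the same list, was below the filter and so not among the 18 tested. It held 4, 4 and 1 counts in control and 9, 23 and 19 in knockdown libraries. DESeq2, without that filter, called 5 genes of the list lower and 1 higher, beside 1277 lower and 1346 higher of 25308 genes. CUL3, the ligase scaffold of KEAP1, was at 139 ± 7.83 and 142 ± 0.807 CPM, with overlap. The count of 5 moved with single libraries, as did the count over all genes (2402 of 13896 with all libraries). Without control replicate 3 it was 1 of 19 tested, beside 986 of 14248 genes. Without control replicate 1 it was 3 of 19 (2 lower and 1 higher), beside 1003 of 14277. Without knockdown replicate 1 it was 8 of 19 (6 lower and 2 higher), beside 2607 of 14188. Without control replicate 3 the calls of SQSTM1, PGAM5 and DPP3 were lost (-0.41, -0.46 and -0.39; edgeR adjusted p = 0.0516, 0.0651 and 0.0894). Without control replicate 1, PGAM5 and DPP3 were at -0.53 and -0.42 (edgeR adjusted p = 0.0519 and 0.0871).

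Of 23 other tested NRF2 targets, 2 fell and 1 rose, beside 17.3% of all genes called, with a median of -0.04. HMOX1, the heme oxygenase that frees iron from heme, fell furthest. It was at 366, 366 and 448 CPM in control and 141, 119 and 151 CPM in knockdown libraries, a log2 fold change of -1.52 ± 0.12 (SE; edgeR adjusted p = 0.000101), with no overlap. FTL, the ferritin light chain, fell from 688 ± 98.6 to 468 ± 75.0 CPM (-0.55 ± 0.14; -0.33 with GC content and length trends removed). Its pseudogenes took few reads, at most 76 counts in 6 libraries (FTLP12) against 65641 for FTL. The heavy chain FTH1 did not pass (-0.26 ± 0.15), but did without knockdown replicate 3 (-0.42, edgeR adjusted p = 0.0489). It was at -0.53 with knockdown replicate 2 alone. EPHX1, an epoxide hydrolase, rose from 23.2 ± 2.64 to 30.4 ± 0.678 CPM (0.39 ± 0.12), a call that was lost whichever of the 6 libraries was left out (edgeR adjusted p = 0.0501 to 0.182). The call of FTL needed control replicate 3 (-0.43 without it, edgeR adjusted p = 0.0853) and knockdown replicate 1 (-0.52 without it, edgeR adjusted p = 0.0636). The cystine carrier SLC7A11 (0.04 ± 0.16) did not pass. The carbonyl reductase CBR1 (0.35 ± 0.13; edgeR adjusted p = 0.0922) did not pass either, but did once GC content and length trends were removed (0.42, edgeR adjusted p = 0.00793). AKR1C1, AKR1C2 and AKR1B10 were below the filter. AKR1C3 was tested, with 1, 11 and 5 counts in control and 13, 14 and 14 in knockdown libraries. It did not pass (1.19 ± 0.54, SE; edgeR adjusted p = 0.1495). The count was 1 of 23 without control replicate 3 or knockdown replicate 1, beside 986 of 14248 and 2607 of 14188 over all genes. It was 5 of 23 without knockdown replicate 3, beside 2645 of 14195.

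**Figure D4:**
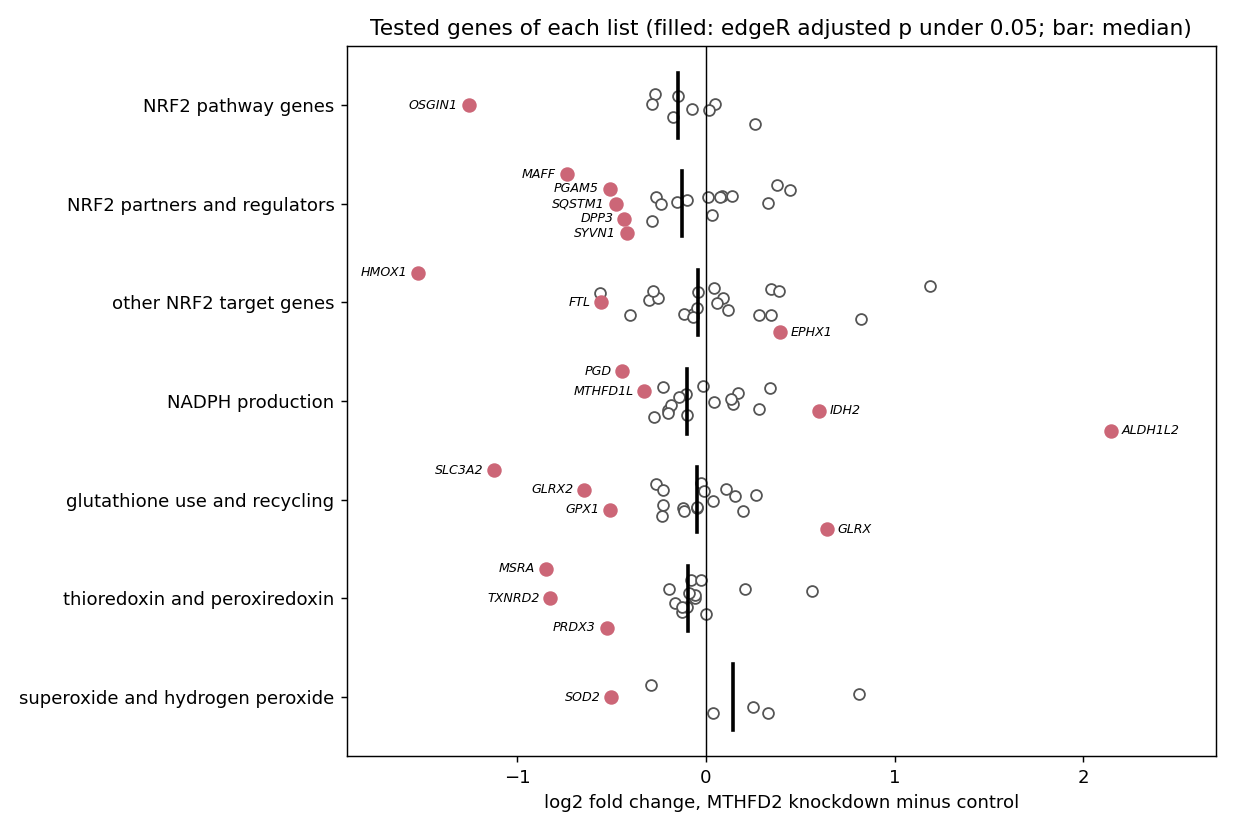
Log2 fold change (x axis, knockdown minus control) of each tested gene in 7 lists (rows; vertical jitter has no meaning), with filled named points for an edgeR adjusted p under 0.05 and a bar at the median. The row of NRF2 pathway genes has 1 filled point, OSGIN1, and HMOX1 at -1.52 is the lowest point of the 7 rows.

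Of 19 other tested genes of NADPH production, 2 rose and 2 fell, 21.1% beside 17.3% of all genes, with a median of -0.10. PGD, an NADPH-making enzyme of the pentose phosphate pathway, fell from 370 ± 23.1 to 272 ± 29.4 CPM (-0.44 ± 0.11). IDH2, the mitochondrial isocitrate dehydrogenase that makes NADPH, rose from 12.2 ± 1.68 to 18.4 ± 2.95 CPM (0.60 ± 0.16), and its cytosolic relative IDH1 was at 0.14 ± 0.10. ALDH1L2, which makes NADPH from formyltetrahydrofolate in mitochondria, held 7, 2 and 5 counts in control and 16, 35 and 16 in knockdown libraries (2.15 ± 0.52). MTHFD1L, a mitochondrial one-carbon enzyme that makes no NADPH itself, fell by 0.33 ± 0.10. None of these 4 calls held in every fit. Leaving out control replicate 1 or 3 ended the call of PGD (edgeR adjusted p = 0.0567 and 0.0768). For IDH2 the same held of control replicates 1 and 2 and knockdown replicate 3 (edgeR adjusted p = 0.103, 0.0688 and 0.0556). For ALDH1L2 it held of control replicates 2 and 3 and knockdown replicate 2 (edgeR adjusted p = 0.0514, 0.0587 and 0.0658). For MTHFD1L it held of each control and of knockdown replicate 2 (edgeR adjusted p = 0.0759 to 0.143). The count of 4 became 1 of 19 without any 1 of the controls. Over all genes, 1003 of 14277, 1679 of 14239 and 986 of 14248 passed without control replicates 1, 2 and 3. It was 2 of 19 without knockdown replicate 2, beside 1469 of 14166 over all genes.

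In glutathione use and recycling, 3 of 19 tested genes fell and 1 rose, 21.1% beside 17.3% of all genes, with a median of -0.05. SLC3A2, the heavy chain shared by the cystine and leucine carriers, fell from 528 ± 60.4 to 243 ± 44.0 CPM (-1.12 ± 0.14, SE; edgeR adjusted p = 0.000725). The mitochondrial glutaredoxin GLRX2 fell (-0.64 ± 0.16) and the cytosolic GLRX rose (0.64 ± 0.17), and the glutathione peroxidase GPX1 fell (-0.51 ± 0.15). Glutathione reductase, GSR, was higher in all knockdown libraries without passing (0.27 ± 0.10, SE; edgeR adjusted p = 0.0877). GSR did pass with GC content and length trends removed (0.25, edgeR adjusted p = 0.0445), and it was at 0.35 with knockdown replicate 2 alone. GLRX2 shares 481 exonic bases with TROVE2 on the other strand, and whether counting used strand is not stated here, so their reads may be mixed. The call of GLRX2 needed control replicate 3 and knockdown replicate 1 (without them, edgeR adjusted p = 0.0784 and 0.0562). GLRX lost its call without any control replicate or knockdown replicate 3, and GPX1 without control replicate 1 or 3 or knockdown replicate 1 or 2. In those fits the edgeR adjusted p lay between 0.0649 and 0.0819 for GLRX and between 0.0622 and 0.175 for GPX1. The count of 4 became 1 of 19 without control replicate 3, beside 986 of 14248 over all genes. It was 2 of 19 without control replicate 1 or knockdown replicate 1, beside 1003 of 14277 and 2607 of 14188.

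In the thioredoxin and peroxiredoxin list, 3 of 16 tested genes fell and 0 rose, 18.8% beside 17.3% of all genes, with a median of -0.09. These were MSRA, a methionine sulfoxide reductase (-0.85 ± 0.15), TXNRD2, the mitochondrial thioredoxin reductase (-0.82 ± 0.17), and PRDX3, the mitochondrial peroxiredoxin (-0.52 ± 0.11). All 3 passed whichever of the 6 libraries was left out. TXNRD2 was at 75.5, 75.2 and 93.9 CPM in control and 58.5, 35.5 and 44.1 CPM in knockdown libraries, against the overlapping groups of TXNRD1. The ratio of TXNRD2 to TXNRD1 counts was 0.169, 0.157 and 0.222 in control and 0.148, 0.082 and 0.12 in knockdown libraries, without overlap (exact permutation p = 0.1). The most abundant peroxiredoxin, PRDX1, did not pass (-0.16 ± 0.13).

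Of the genes that make or remove superoxide and hydrogen peroxide, 6 of 17 were tested. Of these, 1 fell and 0 rose, 16.7% beside 17.3% of all genes, with a median of 0.14. SOD2, the mitochondrial manganese superoxide dismutase, fell from 161 ± 2.17 to 114 ± 4.62 CPM (-0.50 ± 0.09, SE; edgeR adjusted p = 0.00504), and the cytosolic SOD1 did not pass (0.04 ± 0.12). Catalase, CAT, was higher in all knockdown libraries, at 55.5 ± 3.19 against 69.8 ± 6.18 CPM, and missed the threshold (0.33 ± 0.11, SE; edgeR adjusted p = 0.054), which it passed by DESeq2 (adjusted p = 0.0479), with GC content and length trends removed (edgeR adjusted p = 0.0303) and without knockdown replicate 1 (edgeR adjusted p = 0.0318). The catalytic NADPH oxidase genes NOX1, NOX4 and NOX5 had no count in any library, where 3 counts equal 0.149 to 0.171 CPM. CYBB, another catalytic oxidase gene, held 7, 13 and 9 counts in control and 11, 10 and 4 in knockdown libraries. It did not pass (-0.29 ± 0.47, SE; edgeR adjusted p = 0.697). DUOX1 and DUOX2 were below the filter, with few counts.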

How the data were processed

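Gene counts of 6 T24 libraries were analysed. Values are raw read counts, whole numbers by gene symbol, as the authors deposited them. HISAT2 2.0.4 and GRCh38 are named, per the submitters' processing notes. The counting tool, annotation and strand setting: not given in the sources used here. Groups came from the titles. The word knockout appears in the design text, but titles and protocol name a hairpin. In R 4.3.3 with edgeR 4.0.16 and limma 3.58.1, libraries were scaled (TMM), genes with low counts removed (filterByExpr), and a quasi-likelihood test was run for each of 13896 genes. P-values were adjusted by Benjamini-Hochberg, and 0.05 was the threshold. The procedure was tested on simulated data. DESeq2 1.42.0 was an alternative. The SE is the log2 fold change divided by the square root of F, and 95% intervals use the moderated degrees of freedom. Coordinates and exonic length came from GENCODE 29 (GRCh38), promoters from RefSeq. Replicates differed by more than counting noise in every pair (chi-square over its degrees of freedom 2.65 to 34.6). Depths of 17801990 to 19978392 counts make 3 counts equal to 0.149 to 0.171 CPM; this covers counting error only, since PCR copies cannot be told from molecules. The genes and lists were chosen with earlier results of these data known. From each list up to 4 genes past the threshold were named by size, each direction present; others named serve as comparators chosen after their values were seen.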

Additional observations from a re-analysis of the deposited data

How the results depend on the processing

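Over 14 alternatives the 9 genes gave 126 log2 fold changes, of which 115 kept their side of the threshold, 11 newly passed and none lost a call; OSGIN1 passed in all 14 (-1.60 to -1.12). The number of the 9 genes called was 1 with all libraries, 2 by DESeq2, 3 with GC content and length trends removed, and 1 to 2 when a library was left out. The fit with knockdown replicate 2 alone was chosen after seeing the data. In it the spread of the knockdown group was assumed to equal that of the controls, so its calls carry little weight. The replicate number as a block gave 4 (OSGIN1, GCLM, KEAP1 and GCLC), and 4 as well together with GC content and length trends removed. With 6 libraries the block leaves few residual degrees of freedom to measure the spread of a gene. Its edgeR adjusted p for MTHFD2 was 5.09e-132, against 1.8e-06 without the block. The block calls given here, for single genes and for lists, therefore also carry little weight. Over all genes the count was 2402, against 749 at a threshold of 0.01, 5062 with the replicate block, 3631 with GC content and length trends removed (1479 higher and 2152 lower, against 1349 and 1053), 5819 with both, 4432 with knockdown replicate 2 alone, and 986 to 2645 when a library was left out (986 without control replicate 3, 1003 without control replicate 1, 1469 without knockdown replicate 2). Same-numbered libraries correlated at -0.02, 0.297 and 0.353 in their deviations from the group means. Control replicates 2 and 3 correlated best with the knockdown library of their own number, and control replicate 1 with knockdown replicate 2 (0.165). This did not settle whether the numbers are pairs, and they were not taken as such. With the replicate block BACH1, FTH1, CBR1, GSR and CAT passed as well (edgeR adjusted p = 0.00576, 0.0108, 0.00548, 0.0294 and 0.00478). With the block and GC content and length trends removed, CUL3 and SLC7A11 turned from 0.03 and 0.04 to -0.206 and -0.205 (edgeR adjusted p = 0.0122 and 0.0348), and the 4 of the 9 genes called were OSGIN1, GCLM, KEAP1 and TXNRD1. The filter of 1 CPM left ALDH1L2 untested. GC content and length were known for 90.1% of tested genes. The cause of these shifts was not tested. Over all genes 5062 of 13896 passed with the replicate block. Beside that, 11 of 18 partners and regulators passed, 9 of 23 other targets and 6 of 19 genes of NADPH production. For glutathione it was 9 of 19, for thioredoxin 3 of 16 and for superoxide genes 4 of 6.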

Other observations

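The genes whose log2 CPM followed NFE2L2 most closely over the 6 libraries, among 10746 compared, were RAP1GDS1, RAB18 and KLHL2 (Pearson's r = 0.9868, 0.9854 and 0.9842). For NQO1 they were C17orf75, VDAC1 and MED31 (r = 0.9902, 0.9896 and 0.9864). With so many genes and 6 libraries, which share their groups and depth, these values are a description only. Within the groups, OSGIN1 and KEAP1 deviated the same way in all 6 libraries. Among all pairs of the 9 genes, theirs had the highest Pearson's r over the 6 libraries (0.9). They also have the highest GC content of the 9, at 63.4% and 60.3%, and the part of GC trends was not tested. Both genes were highest among controls in replicate 3 (0.18 and 0.14 above the group mean on the log2 scale). Among knockdown libraries both were highest in replicate 1 (0.36 and 0.20 above it) and lowest in replicate 2 (-0.30 and -0.19). NQO1 was highest in replicate 3 of either group, by 0.14 and 0.20.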
